A study of Mus musculus with 10 samples.

Results

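B-1 cells are a self-renewing branch of B lymphocytes, best known from the body cavities, that make much of the natural antibody of the serum, whereas most splenic B cells are follicular cells that rest until they meet antigen. The 6 genes described here, Cd5, Cd9, Bhlhe41, Zbtb32, Lck and Nfatc1, are all known from B-1 cells, and they were chosen by name for high levels after a second round of culture, out of 6610 gene symbols in the table. Cd5 encodes a surface glycoprotein that dampens antigen receptor signals and defines the B-1a subset. Cd9 encodes a tetraspanin, a membrane-organising protein found on B-1, marginal zone and antibody-secreting cells. Bhlhe41 and Zbtb32 encode transcriptional repressors, a basic helix-loop-helix protein needed for B-1a cells and a BTB zinc finger protein of activated lymphocytes. Lck encodes the Src-family kinase of T cell receptor signalling, and Nfatc1 a transcription factor that calcium and calcineurin bring into the nucleus and that B-1a cells need.

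RNA was measured in splenic B cells of C57BL/6 mice, an inbred strain with no introduced allele named in the labels, in 5 groups of 2 libraries. The naive group holds resting cells without activation. For Phase I, cells received a 48 h pulse of antibodies against IgM and CD40 and were separated into those that had not divided (div0) and those that had (div12). Phase II cells are div12 cells kept for another 48 h in 0.12 µg/ml anti-CD40 and sorted into cells that did not divide again (div12_48_u) and cells that did (div12_48_d). Each Phase I replicate is described as an independent pool of 4 to 5 mice, and whether the Phase II replicates are separate pools is not stated, so p-values that involve them may measure technical spread. RNA came from 1000000 cells in Phase I and 500000 in Phase II, and phase, stimulus, time in culture and cell input cannot be told apart. Levels are in TPM, a transcript abundance corrected for length and scaled to the same total in every library, so the sequencing depth is unknown. In bulk RNA, a change in the number of cells that hold a transcript and a change in the amount per cell cannot be told apart. Pax5, the transcription factor gene that defines B cells, was present in all 10 libraries (420.6 to 1038 TPM). The naive libraries differed most from each other, with 340 genes more than 2-fold apart against 33 to 65 in the other groups, and they held more RNA of T, NK and myeloid markers.

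All 6 genes had RNA in every library, also in resting and Phase I cells, so the levels do not show genes that appear for the first time in Phase II. In div12_48_d cells, all 6 lay above the naive and div12 libraries without overlap, as 29.3% and 38.6% of the 4427 tested genes did. In div12_48_u cells, 5 of the 6 lay above div12 (48.0% of tested genes) and 4 above naive (26.2%). Zbtb32 is the exception to the first count, and Zbtb32 and Cd9 to the second. These Phase II levels are what the genes were chosen for, and they are given as a description with no test.

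The promoters of 5 of the 6 genes were available from RefSeq (GRCm38.p6). They are set side by side because the genes were chosen together for high Phase II levels, although their courses over the 5 groups differed. Each stretch holds bases upstream of every annotated exon of its start site, 5′ to 3′ on the minus strand, which all these genes use. Capitals mark CACGTG, the E-box that Bhlhe41 and its relatives bind, GGAAA, the core of sites bound by NFAT proteins, and GGGNNNNNCC, the frame of an NF-kB site, each searched on both strands.
Bhlhe41, chr6:145865559-145865670: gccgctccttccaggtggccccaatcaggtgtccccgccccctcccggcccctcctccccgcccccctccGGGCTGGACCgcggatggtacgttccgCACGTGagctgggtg
Cd5, chr19:10739003-10739224: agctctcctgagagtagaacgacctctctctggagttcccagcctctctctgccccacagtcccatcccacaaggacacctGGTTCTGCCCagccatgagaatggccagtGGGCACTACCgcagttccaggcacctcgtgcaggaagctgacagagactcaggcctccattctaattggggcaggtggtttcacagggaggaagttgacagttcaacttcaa
Cd9, chr6:125494792-125495010: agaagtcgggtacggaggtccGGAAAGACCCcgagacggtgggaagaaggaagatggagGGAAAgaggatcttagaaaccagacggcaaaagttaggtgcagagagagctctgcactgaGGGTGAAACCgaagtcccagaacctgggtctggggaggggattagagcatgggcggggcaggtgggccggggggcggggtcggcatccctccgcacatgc
Lck proximal start, chr4:129558392-129558622: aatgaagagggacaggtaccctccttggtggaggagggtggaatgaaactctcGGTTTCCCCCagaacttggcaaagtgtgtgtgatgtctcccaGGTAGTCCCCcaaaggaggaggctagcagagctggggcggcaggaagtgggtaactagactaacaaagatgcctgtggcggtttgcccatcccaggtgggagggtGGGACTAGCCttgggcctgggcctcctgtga
Lck distal start, chr4:129573642-129573891: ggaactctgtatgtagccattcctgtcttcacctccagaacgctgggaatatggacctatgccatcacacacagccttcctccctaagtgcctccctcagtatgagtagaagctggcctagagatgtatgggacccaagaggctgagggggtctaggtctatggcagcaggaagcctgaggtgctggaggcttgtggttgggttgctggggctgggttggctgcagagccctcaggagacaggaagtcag
Zbtb32, chr7:30592943-30593192: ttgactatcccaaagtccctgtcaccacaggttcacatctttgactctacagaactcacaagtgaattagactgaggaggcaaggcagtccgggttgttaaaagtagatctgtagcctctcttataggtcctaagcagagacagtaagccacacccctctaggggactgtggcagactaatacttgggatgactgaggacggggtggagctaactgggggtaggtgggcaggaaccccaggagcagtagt

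The Bhlhe41 stretch holds 1 CACGTG within 112 bases, which 1.99% of 32851 mouse promoters hold in a window of that length, and 1 GGGNNNNNCC (20.4%). Each such window begins 250 bases upstream of a RefSeq start, and annotated exons were not removed from it. The Cd5 stretch holds 2 GGGNNNNNCC in 222 bases, a motif that 41.5% of promoters hold in that window. The Cd9 stretch holds 2 GGAAA (51.2% of promoters) and 2 GGGNNNNNCC (41.0%), with 1 of each overlapping. At Lck the proximal start has 1 GGAAA (52.8%) and 3 GGGNNNNNCC (42.9%) in 231 bases. None of these letters stand in the 250 bases before the distal Lck start or before the start of the main Zbtb32 transcript. A match of letters is a description and not a binding site.

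Among the surface proteins, Cd5 had its lowest levels in resting cells and its highest in cells that divided in Phase II. Cd5 stood at 11.4 and 12.1 TPM in the naive libraries, 13.3 and 14.7 in div0, 22.3 and 23.2 in div12, 28.5 and 28.5 in div12_48_u, and 70.4 and 74.7 in div12_48_d. No group of Cd5 values overlapped its neighbour, and the order naive, div0, div12, div12_48_u, div12_48_d held in all 10 libraries. The ratio of Cd5 group means to div12 was 1.25 in div12_48_u and 3.19 in div12_48_d. Cd5 lies on chromosome 19 from 10717116 to 10739002 on the minus strand and is listed with 1 transcript.

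Cd9 differed from Cd5 in that resting cells were not at the bottom of its range. The Cd9 libraries read 87.3 and 78.4 TPM in naive cells, 59.0 and 56.6 in div0, 57.1 and 61.0 in div12, 68.0 and 80.7 in div12_48_u, and 234 and 304 in div12_48_d. The div0 and div12 values of Cd9 overlapped, as did those of naive and div12_48_u, and div12_48_d stood apart from all of them. Relative to div12 the mean of Cd9 was 1.26-fold in div12_48_u and 4.55-fold in div12_48_d. Cd9 lies on chromosome 6 from 125460266 to 125494791 and shares 218 exon bases with Gm26728 on the opposite strand, which the table does not list. Whether the counting used strand is not given in the sources used here.

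Of the repressors, Bhlhe41 was high in both Phase II groups and Zbtb32 in the divided group. The naive libraries held 22.7 and 16.4 TPM of Bhlhe41, div0 12.8 and 15.6, div12 21.0 and 21.5, div12_48_u 45.0 and 43.1, and div12_48_d 102 and 126. Naive and div12 values of Bhlhe41 overlapped, and each Phase II group lay above all earlier groups. Its mean was 2.08 times that of div12 in div12_48_u and 5.37 times in div12_48_d. Both listed Bhlhe41 transcripts, of 6133 and 744 bases, had the same order of the last 3 groups, at 13.1, 25.8 and 66.2 TPM for the long and 8.12, 18.3 and 47.8 TPM for the short in div12, div12_48_u and div12_48_d. Bhlhe41 lies on chromosome 6 from 145858243 to 145865558 and shares 1280 exon bases with the opposite-strand gene model Gm43909, which the table does not list. Whether reads of the pair were told apart is not known, since the use of strand in counting is not given.

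Zbtb32 read 12.5 and 20.5 TPM in naive cells, 17.2 and 22.0 in div0, 26.6 and 30.2 in div12, 21.2 and 16.9 in div12_48_u, and 83.7 and 114 in div12_48_d. The naive, div0 and div12_48_u values overlapped, div12 lay above them, and div12_48_d lay above div12. Cells that did not divide again in Phase II thus held less Zbtb32 RNA than their div12 parents, at 0.671 of the mean, while cells that divided held 3.48 times as much. The coding transcript Zbtb32-202 made up most of the RNA in every library (78.4 to 96.4% of the gene), and the rest came from a non-coding transcript. The gene lies on chromosome 7 from 30589681 to 30598909.

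**Figure D1:**
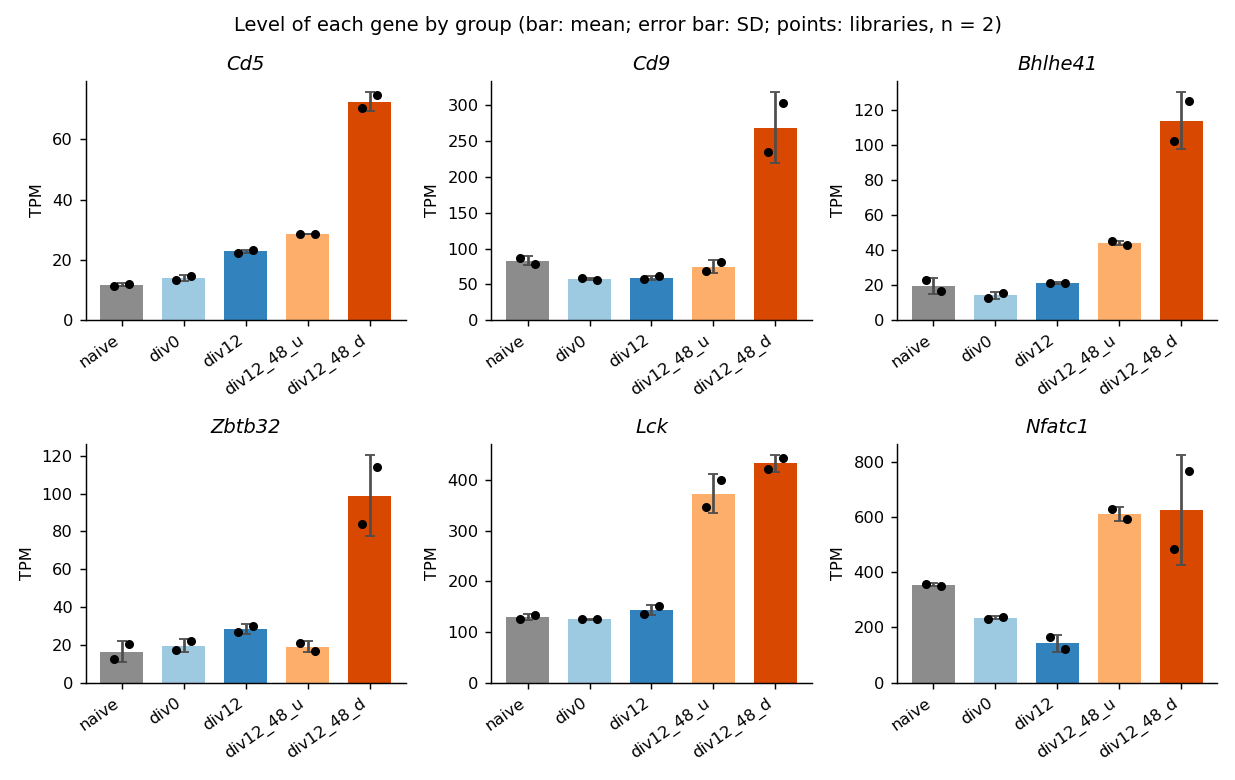
Level in TPM (vertical axis, from 0) of each of the 6 genes in the 5 groups, with bars for the mean, error bars for the SD and points for the 2 libraries of each group. Cd5, Cd9, Bhlhe41 and Zbtb32 are highest in div12_48_d, whereas Lck and Nfatc1 are high in both Phase II groups, with means of 374 and 433 TPM for Lck and 610 and 626 TPM for Nfatc1.

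Lck RNA was near constant through Phase I and higher in both Phase II groups. The libraries read 125 and 133 TPM in naive cells, 125 and 126 in div0, 137 and 151 in div12, 346 and 401 in div12_48_u, and 422 and 445 in div12_48_d. Naive and div0 values of Lck overlapped, div12 lay just above them, and the Phase II libraries formed a separate upper range. The mean of Lck in div12_48_u was 2.60 times that of div12, and in div12_48_d 3.01 times.

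Mouse Lck is known to have a proximal promoter and a distal promoter, and the table lists transcripts from both. The proximal start (Lck-201 and Lck-208) gave a mean of 112 TPM in naive libraries, 103 in div0 and 121 in div12, and then 355 in div12_48_u and 412 in div12_48_d. The distal start (Lck-202) gave 17.0, 22.4, 22.6, 19.1 and 21.3 TPM in the same order. All of the Phase II excess thus lay in transcripts assigned to the proximal start, whose upstream sequence is shown above, and the distal share of the gene went from 13.1 ± 1.00% in naive and 15.7 ± 1.93% in div12 to 5.09 ± 0.687% in div12_48_u and 4.94 ± 1.83% in div12_48_d (SD, n = 2). These shares rest on the authors' assignment of 50 base reads to transcripts that differ in their first exons. Lck lies on chromosome 4 from 129548344 to 129573641.

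Since Lck and Cd5 also mark T cells, T cell markers were set beside them. Cd3e, a chain of the T cell receptor complex, stood at 10.3 and 10.2 TPM in naive libraries, at 0 and 0.116 in div12_48_u and at 0.304 and 0.345 in div12_48_d, where Lck and Cd5 were highest. Cd4 was at most 1.26 TPM and Cd8a at most 1.17 TPM in the Phase II libraries, against 7.29 and 10.4 and 3.12 and 3.73 TPM in naive cells. Of 24 T cell markers 13 were in the table, and Cd3d, Cd3g, Trac, Trbc1 and Trbc2 were not analysed here. Summed over the 13, they gave 935 and 843 TPM in naive libraries and 126 to 278 TPM elsewhere, most of it from Cd2, which B cells express too. Without Cd2, an exclusion made after seeing the data, the sum was 99.8 and 122 TPM in naive libraries, 30.4 to 43.9 in Phase I, 26.6 and 17.4 in div12_48_u and 43.0 and 33.5 in div12_48_d. The activated Phase I libraries held 0.0759 to 0.328 TPM of Cd3e, and the part of T cell RNA in the levels of Lck and Cd5 was not tested. Of the 13 markers, Il7r rose in div12_48_d over div12_48_u (from 5.13 and 1.83 to 17.3 and 8.95 TPM, adjusted p = 0.0185, limma) and none fell. In that comparison 12.2% of all tested genes were higher and 13.4% lower.

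**Figure D2:**
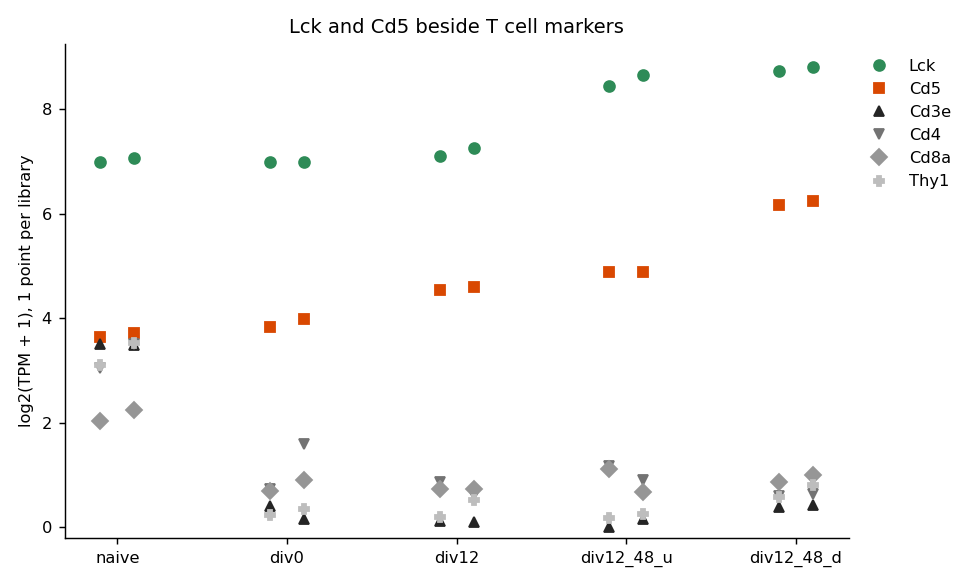
log2(TPM + 1) of Lck and Cd5 (coloured) and of the T cell markers Cd3e, Cd4, Cd8a and Thy1 (grey) in each of the 10 libraries, by group. The markers are highest in the naive libraries, with Cd3e at 10.3 and 10.2 TPM, and lower in all activated libraries, Phase I included, while Lck and Cd5 are highest in div12_48_d.

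Nfatc1 had a different course, since it was well above 100 TPM in resting cells and lower in Phase I. Its libraries read 358 and 351 TPM in naive cells, 231 and 239 in div0, 164 and 120.4 in div12, 627 and 593 in div12_48_u, and 485 and 766 in div12_48_d. The groups naive, div0 and div12 did not overlap and stood in falling order, and both Phase II groups lay above naive and overlapped each other. The div12_48_d libraries differed most, and the div12_48_u pair lay between them. The mean of Nfatc1 was 4.29 times that of div12 in div12_48_u and 4.40 times in div12_48_d.

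Nfatc1 makes several isoforms from an upstream and a downstream start, each with a short or a long 3′ end, and the short form from the upstream start is known as the one induced in stimulated lymphocytes. All 6 listed transcripts matched the annotation of chromosome 18, where the gene runs from 80606205 to 80713071 on the minus strand. The short transcript from the upstream start, Nfatc1-206, stood at 26.7 and 25.6 TPM in naive cells, 17.1 and 22.0 in div0, 7.07 and 6.07 in div12, 154 and 128 in div12_48_u, and 116 and 175 in div12_48_d. It was thus lowest in div12 and highest in the Phase II cells that came from it. Upstream-start transcripts together made up 19.9 ± 0.0355% of Nfatc1 RNA in naive libraries, 22.6 ± 2.92% in div0 and 13.1 ± 1.24% in div12, and then 39.3 ± 3.03% in div12_48_u and 34.3 ± 1.54% in div12_48_d (SD, n = 2).

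The 3′ ends of Nfatc1 differed too. The Phase II groups stood apart in them, as they did in the upstream-start share (41.4 and 37.1% in div12_48_u, 35.4 and 33.2% in div12_48_d). Transcripts with the short end made up 43.7 ± 0.920% in naive cells, 40.8 ± 0.0867% in div0 and 46.1 ± 1.66% in div12. Their share was 62.3 ± 0.00741% in div12_48_u and 74.6 ± 0.958% in div12_48_d. The long-end transcripts summed to 236 and 223 TPM in div12_48_u and 126 and 189 TPM in div12_48_d, so similar group means of the gene stood beside an unequal makeup. These shares have no test, and no share of the Phase II groups overlapped that of an earlier group.

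**Figure D3:**
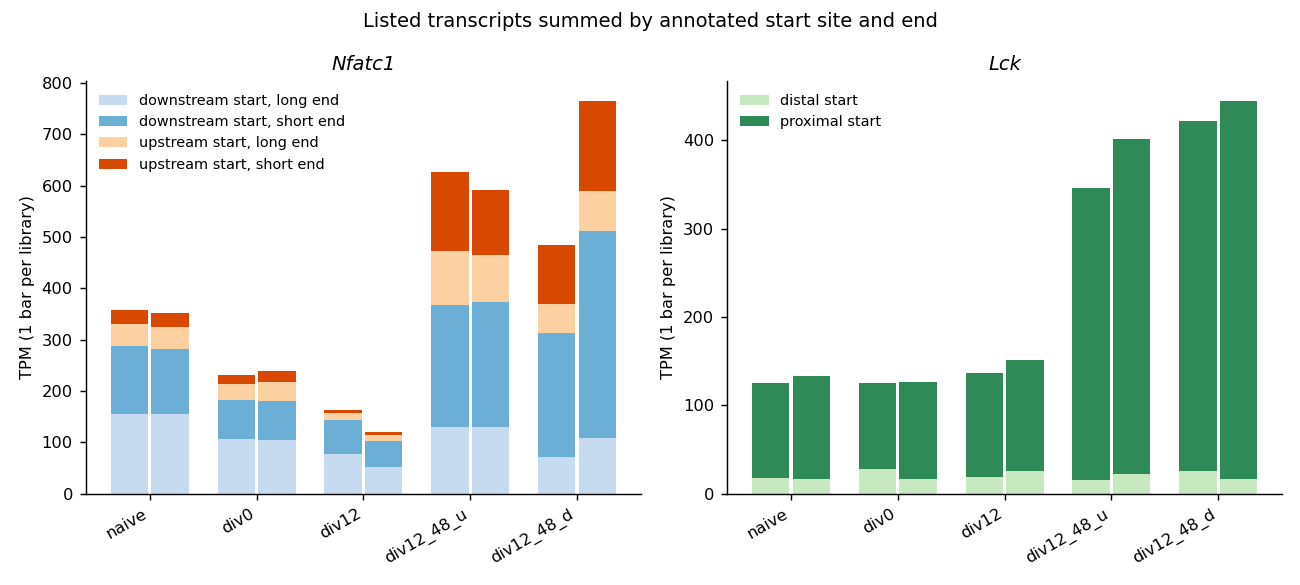
TPM (vertical axis, 1 stacked bar per library) of the listed transcripts of Nfatc1, summed by start and end, and of Lck, summed by start, in the 5 groups. The upstream-start, short-end class of Nfatc1 is 7.07 and 6.07 TPM in div12 and 116 to 175 TPM in Phase II, and the proximal class of Lck carries the Phase II excess while the distal class has group means of 17.0 to 22.6 TPM.

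The first test asked what activation without division did to these genes (div0 against naive). Its log2 difference uses no Phase II or div12 library, but its spread estimate, and so its p-values, comes from all 10 libraries. The naive libraries were also among those the Phase II levels were set against when the genes were chosen. A gene was called where its two-sided p from limma, a linear model that shares its spread estimate between genes, was under 0.05 after Benjamini-Hochberg adjustment over 4427 genes. Cd9 fell by 0.51 ± 0.14 (log2 fold change ± SE, adjusted p = 0.0148) and Nfatc1 fell by 0.59 ± 0.20 (adjusted p = 0.0380). The other 4 were not called, with 0.24 for Cd5, -0.43 for Bhlhe41, 0.27 for Zbtb32 and -0.04 for Lck. The 2 of 6 called compare with 54.9% of all tested genes (15.4% higher and 39.6% lower), and the median gene stood at -0.24. The calls were not firm, since with median-ratio scaling, where the median gene stood at -0.03, Cd9 had adjusted p = 0.160 and Nfatc1 0.130, while Cd5 was called higher (adjusted p = 0.00855). With quantile normalization the count was again 2 but the genes were others, since Cd9 (adjusted p = 0.117) and Nfatc1 (0.0996) were lost and Cd5 (0.00200) and Zbtb32 (0.0393) were called higher. Without naive replicate 1 both calls were lost as well (adjusted p = 0.0724 for Cd9 and 0.121 for Nfatc1). Without div0 replicate 1 or 2 Cd9 had adjusted p = 0.0542 or 0.0794 and Nfatc1 0.132 or 0.110, without naive replicate 2 Nfatc1 had 0.108 and Bhlhe41 was called lower (adjusted p = 0.0169), and without div12_48_u replicate 1 or 2 Nfatc1 had 0.0574 or 0.0573.

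Cells that had divided in Phase I were then compared with resting cells, using div12 libraries that also entered the choice of genes. Cd5 rose by 0.90 ± 0.11 (adjusted p = 1.76e-04) and Zbtb32 by 0.79 ± 0.25 (adjusted p = 0.0220), whereas Nfatc1 fell by 1.33 ± 0.20 (adjusted p = 5.77e-04) and Cd9 by 0.48 ± 0.14 (adjusted p = 0.0149). Bhlhe41 (0.13) and Lck (0.15) were not called. The 4 of 6 called compare with 66.9% of tested genes, split into 19.4% higher and 47.5% lower, around a median of -0.35. With median-ratio scaling 1388 genes were higher and 1457 lower in place of 858 and 2104, the call of Cd9 was lost (adjusted p = 0.419) and Lck was called higher (adjusted p = 0.00695). Quantile normalization gave 5 calls, without Cd9 (adjusted p = 0.342) and with Lck (0.0122) and Bhlhe41 (0.0368) higher. The call of Cd9 was also lost without the first library of naive (adjusted p = 0.0756) or of div12 (0.0709), and that of Zbtb32 without naive replicate 1 (0.143) and div12 replicate 1 or 2 (0.0510 or 0.104). Zbtb32 was also lost in a fit of only the compared groups (0.0640), which left 3 calls, and with the most abundant transcript (0.0555), where Lck was called higher (0.00297). The calls of Cd5 and Nfatc1 were not lost in any alternative.

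Division within Phase I (div12 against div0) was associated with a call in 1 of the 6 genes, against 8.76% of tested genes (3.68% higher and 5.08% lower). Cd5 rose by 0.67 ± 0.11 (adjusted p = 0.0177), and that call was lost without any of the 4 libraries compared (adjusted p = 0.0518 to 0.199). Bhlhe41 (0.56 ± 0.17, adjusted p = 0.0819), Zbtb32 (0.52 ± 0.25, 0.217) and Lck (0.19, 0.231) were not called, nor was Nfatc1 (-0.74 ± 0.20, 0.0576). Without either naive library Bhlhe41 was called (adjusted p = 0.0452), and without div12_48_d replicate 1 or 2 Nfatc1 was (0.0281 or 0.0282). For Cd9 the estimate was 0.03 (adjusted p = 0.925).

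Division within Phase II (div12_48_d against div12_48_u) separated the 6 genes into 4 that rose and 2 that were not called. Zbtb32 rose by 2.31 ± 0.25 (4.95-fold, adjusted p = 9.98e-04), Cd9 by 1.83 ± 0.14 (3.57-fold, adjusted p = 4.77e-04), Bhlhe41 by 1.34 ± 0.17 (2.54-fold, adjusted p = 0.00201) and Cd5 by 1.32 ± 0.11 (2.49-fold, adjusted p = 4.94e-04). In each of these 4 genes both div12_48_d libraries lay above both div12_48_u libraries. All 4 calls held in the 21 alternatives run, leaving out each library included, with a highest adjusted p of 0.0245. Of all tested genes 25.6% were called and 12.2% were higher (13.4% lower). These libraries also entered the choice of the genes, so neither the count of 4 of 6 nor the adjusted p of each gene is independent evidence. The alternatives reuse the same libraries and do not lift this limit.

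Lck and Nfatc1 were not called in the same comparison. The Lck difference was 0.22 ± 0.09 (adjusted p = 0.131), with a 95% interval from -0.00075 to 0.43, although both div12_48_d libraries lay above both div12_48_u libraries. For Nfatc1 the interval ran from -0.47 to 0.47 around an estimate near 0 (adjusted p = 1). The intervals hold the difference within the stated bounds and do not show equal levels.

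**Figure D4:**
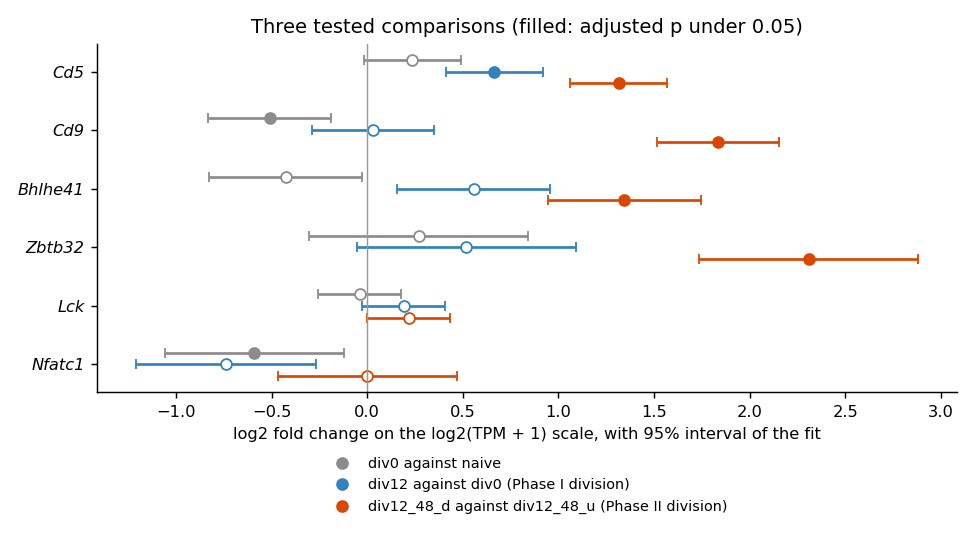
log2 fold change (horizontal axis, log2(TPM + 1) scale) of each gene in div0 against naive, div12 against div0 and div12_48_d against div12_48_u, with 95% intervals of the fit and filled points where the adjusted p was under 0.05. In the Phase II division contrast 4 genes lie between 1.32 and 2.31 and Lck and Nfatc1 lie at 0.22 and near 0.

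Whether division went with a larger difference in Phase II than in Phase I was tested as the difference of the 2 division contrasts. No gene of 4427 was called by limma (0.00%), and 438 of the 4427, among them 5 of the 6 described here, had an unadjusted p under 0.05. The Phase II and div12 libraries in this difference also entered the choice of the genes, so the count of 5 of 6 is not independent evidence. Cd9 had the smallest adjusted p of the 6, at 0.0539 for a difference of 1.80 ± 0.20, and an earlier look at these data had already singled it out. Over 21 alternatives its adjusted p ran from 0.0338 to 0.277 and was under 0.05 in 12 of them, among them median-ratio scaling (0.0450) and fits without naive replicate 1 (0.0425) or 2 (0.0426), div12_48_u replicate 1 (0.0452) or div12_48_d replicate 1 (0.0338). Zbtb32 had 1.79 ± 0.35 (adjusted p = 0.101), Bhlhe41 0.79 ± 0.25 (0.288), Nfatc1 0.74 ± 0.29 (0.414), Cd5 0.65 ± 0.16 (0.172) and Lck 0.03 ± 0.13 (0.992).

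Other genes known from B-1 cells were taken from a list of 20, of which 13 could be tested. The list was chosen with earlier results of these data known, so its counts are not independent evidence. Between the Phase II groups 7 rose with division, 1 fell and 5 were not called, with a median of 0.98 against -0.08 over all genes, of which 12.2% were higher and 13.4% lower. Lgals1, which encodes galectin-1, rose from 75.6 and 62.1 TPM in div12_48_u to 388 and 334 in div12_48_d (2.38 ± 0.21, adjusted p = 5.25e-04). Cd80, a co-stimulatory ligand, rose by 0.98 ± 0.17, the inhibitory receptor gene Cd300lf by 1.22 ± 0.20 and the transcription factor gene Arid3a by 1.03 ± 0.22. Anxa2 (2.16 ± 0.19), Ctla4 (2.35 ± 0.48), an inhibitory receptor, and Il10 (1.74 ± 0.40), an anti-inflammatory cytokine, are the other 3 that rose. Not all 7 stood above resting cells. Mean TPM in naive cells and in div12_48_d was 93.7 and 25.4 for Anxa2, 22.4 and 15.6 for Ctla4 and 9.14 and 9.38 for Il10. It was 120 and 361 for Lgals1, 13.4 and 94.8 for Cd80, 49.9 and 90.5 for Cd300lf and 48.2 and 89.0 for Arid3a. In div12 against naive, 2 of the 13 were higher and 7 lower, where 19.4% and 47.5% of all tested genes were. Between the Phase II groups Pdcd1lg2, the ligand PD-L2 and a textbook B-1 marker, fell with division (-1.23 ± 0.14, adjusted p = 0.00123, limma). It went from 22.4 and 28.7 TPM to 10.04 and 10.4. Without div12_48_d replicate 1 only 4 of the 13 were called higher, and with quantile normalization 6.

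**Figure D5:**
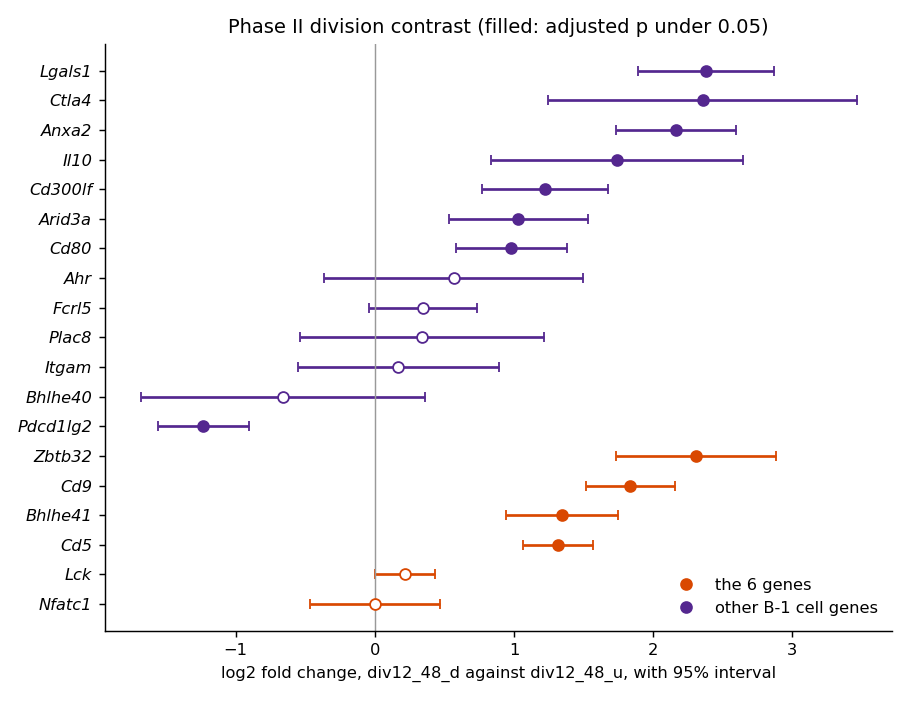
log2 fold change of div12_48_d against div12_48_u (horizontal axis, with 95% intervals) for the 6 genes (orange) and the 13 other B-1 cell genes tested (purple), filled where the adjusted p was under 0.05. Among the others 7 points are filled to the right of 0, led by Lgals1 at 2.38 and Ctla4 at 2.35, and Pdcd1lg2 is filled to the left at -1.23.

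Against their div12 parents, the same list gave 7 higher and 0 lower in div12_48_d, where 15.9% of tested genes were called (11.9% higher and 4.09% lower), and 3 higher and 3 lower in div12_48_u, where 41.3% were (27.7% and 13.6%). These comparisons share the div12 libraries, and as the list was chosen with earlier results known, these counts are not independent evidence either. Plac8, a small cysteine-rich protein gene, read 281 and 382 TPM in div12, 808 and 1843 in div12_48_u and 1141 and 2084 in div12_48_d, with a wide gap between replicates in Phase II. The naive libraries read 1833 and 2072 TPM of Plac8, and 69.8 and 22.4 TPM of Ahr. Ahr, the aryl hydrocarbon receptor gene, rose by 1.49 ± 0.41 in div12_48_u (adjusted p = 0.0190) and 2.06 ± 0.41 in div12_48_d (adjusted p = 0.0119). In div12_48_u Lgals1 (-1.29 ± 0.21), Cd80 (-0.58 ± 0.17) and Anxa2 (-1.69 ± 0.19) fell, as Zbtb32 was lower there than in div12.

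Follicular and plasma cell genes were listed because those states neighbour B-1 cells. Of 9 tested follicular genes, 6 were lower and 0 higher in div12_48_d than in div12_48_u. Their median was -0.60, and 13.4% of all tested genes were lower. The 6 included Fcer2a, which encodes CD23 (-0.93 ± 0.13, from 2089 and 1628 to 1081 and 865 TPM), the homing receptor gene Cxcr5 (-0.60 ± 0.19) and Il4ra (-0.89 ± 0.08). Without div12_48_u replicate 1 or 2 or div12_48_d replicate 1, 3 fell, and with median-ratio scaling 4. Against div12, 6 follicular genes were higher and 1 lower in div12_48_u, where 27.7% and 13.6% of all tested genes were. In div12_48_d 2 were higher and 2 lower than in div12, where 11.9% and 4.09% of all tested genes were. Of 15 listed plasma cell genes 6 could be tested. Between the Phase II groups 3 of them rose and 0 fell, where 12.2% of all tested genes were higher. Jchain, the joining chain of secreted antibody, went from 24.5 and 31.1 to 378 and 464 TPM (3.88 ± 0.43, adjusted p = 0.00104, limma). The naive libraries held 147 and 331 TPM of Jchain. Xbp1, a secretory regulator, rose by 0.92 ± 0.12. Tnfrsf17, at 0 in both div12_48_u libraries and 0.834 and 2.60 TPM in div12_48_d, is the other. Sdc1, the surface marker CD138, was not called, at 10.3 and 29.5 TPM in div12_48_u and 7.05 and 19.5 in div12_48_d, nor were Prdm1 (0.46 ± 0.38) and Irf4 (0.46 ± 0.61). Cd9 and Zbtb32 are known from antibody-secreting or activated cells too, and the part of plasma cell RNA in their rise was not tested.

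Myeloid and NK markers were checked for the same reason. Summed over 14 myeloid markers the level was 484 and 476 TPM in div12_48_u and 750 and 887 in div12_48_d, against 298 to 548 in Phase I and 900 and 2571 in naive cells. The macrophage marker C1qa was at 0 in all 8 activated libraries, and Lyz2 was at 0 and 0.337 TPM in div12_48_d. Most of the sum came from Mpeg1, a perforin-like gene (305 and 303 TPM in div12_48_u, 515 and 581 in div12_48_d), Adgre1, which encodes F4/80 (108 and 103, then 139 and 204), and Cd68 (63.5 and 55.0, then 87.4 and 93.1). None of these 3 was called (adjusted p = 0.0512 for Mpeg1, 0.273 for Adgre1 and 0.211 for Cd68), though their Phase II groups did not overlap, and the part of myeloid RNA in the members' levels was not tested. C1qb was the 1 marker of 14 called between the Phase II groups, where 25.6% of all tested genes were. It stood at 2.54 and 2.40 TPM in div12_48_d against 0.222 and 0 in div12_48_u. The 6 NK markers summed to 4.01 to 7.46 TPM in Phase II.

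In the pathway of Nfatc1, calcium and calcineurin signalling, 20 of 32 listed genes could be tested. Against div12, 10 rose and 2 fell in div12_48_u (median 0.39 against 0.16 over all genes, where 27.7% were higher and 13.6% lower). In div12_48_d 4 rose and 2 fell, where 11.9% of all tested genes were higher and 4.09% lower. Nfat5 rose from 156 and 138 TPM to 389 and 293 in div12_48_u (1.19 ± 0.13) and Nfatc3 by 0.70 ± 0.13, while the calmodulin gene Calm3 (-0.67 ± 0.09) fell. Nfatc2, the relative most studied beside Nfatc1, was at 50.8 TPM in div12_48_u and rose by 1.05 ± 0.21. With median-ratio scaling 7 rose and 2 fell, and without div12 replicate 2 or div12_48_u replicate 1 only 6 rose. Between the Phase II groups 3 rose, Calm3 (0.37 ± 0.09) among them, and 4 fell, including Nfat5 (-0.63 ± 0.13) and the calcineurin subunit gene Ppp3ca (-0.40 ± 0.10), shares of 20 near those over all tested genes (12.2% higher and 13.4% lower). The split also rested on few libraries, with 0 higher and 2 lower without div12_48_u replicate 2, 1 and 1 without replicate 1, and 0 and 1 without div12_48_d replicate 1.

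Lck belongs to the proximal signalling of antigen receptors, and 26 of 39 listed genes of that step could be tested. Of these 20 rose and 0 fell in div12_48_u against div12, where 27.7% of all tested genes were higher and 13.6% lower. Cd79a (0.40 ± 0.09), Cd79b (0.48 ± 0.16), the phosphatase gene Ptpn6 (0.37 ± 0.09) and Ptprc (0.37 ± 0.08) were the most abundant of the 20. With median-ratio scaling the count was 9 higher and 1 lower, and without div12_48_u replicate 1 it was 13 and 0. In div12_48_d 3 rose and 3 fell against div12, where 11.9% of all tested genes were higher and 4.09% lower. Between the Phase II groups 0 rose and 8 fell, where 12.2% of all tested genes were higher and 13.4% lower. The 8 included Ptpn6 (-0.30 ± 0.09), Ptprc (-0.70 ± 0.08), the inhibitory receptor gene Cd22 (-0.90 ± 0.12) and Bank1 (-0.70 ± 0.10). The other 18 of the 26 were not called, and neither was Lck, with its estimate of 0.22.

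Relatives of the other members were counted as well. Among 14 tested tetraspanins and partner proteins 2 rose and 4 fell with Phase II division, where 12.2% of all tested genes were higher and 13.4% lower. Cd53 (-0.45 ± 0.12), Cd82 (-0.37 ± 0.11) and Tspan32 (-0.40 ± 0.10), all tetraspanins like Cd9, fell, and so did the integrin gene Itga4 (-0.42 ± 0.13). The 4 falls were lost without div12_48_u replicate 1 or 2 or div12_48_d replicate 1 (0 lower, 1 higher each), and 2 were lower without div12_48_d replicate 2 or with median-ratio scaling. Among 18 tested BTB zinc finger and E-box factors, 9 were higher and 0 lower in div12_48_u than in div12. In that comparison 27.7% of all tested genes were higher and 13.6% lower. In div12_48_d 5 were higher and 0 lower than in div12, where 11.9% and 4.09% of all tested genes were. Between the Phase II groups 1 rose and 4 fell, which against 12.2% higher and 13.4% lower over all genes says nothing particular of this list. Bach2 (-1.18 ± 0.15), Bcl6 (-1.41 ± 0.27), both repressors that hold back plasma cell fate, Tcf12 (-0.32 ± 0.10) and Zbtb38 (-0.51 ± 0.12) fell. Mean TPM in div12, div12_48_u and div12_48_d was 68.5, 135 and 59.2 for Bach2 and 40.1, 79.1 and 29.2 for Bcl6. Without div12_48_u replicate 1 or div12_48_d replicate 1 the count was 1 lower, without div12_48_u replicate 2 it was 2, and with median-ratio scaling it was 3 lower and 2 higher.

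The genes whose levels ran most like each of the 6 were taken by Pearson's r of log2(TPM + 1) over the 10 libraries, which share the totals and group structure, and are given without a test. For Cd5 these were Tnfsf14 (r = 0.983), with a mean of 6.45 TPM in div12 and 54.8 in div12_48_d, Ext1 (0.972) and Spp1 (0.967). For Cd9 they were Lmo4 (0.980), Nlrc5 (0.962) and Cenpv (0.934). Bhlhe41 ran with S100a11 (0.966) and Gpr55 (0.959), and Zbtb32 with Fah (0.967), Ccr10 (0.959) and Ext1 (0.946). The nearest genes to Lck were St3gal6 (0.990), Tcf4 (0.982) and Wls (0.973), and those to Nfatc1 were Fam53b (0.976), Sh2b2 (0.976) and Tle4 (0.970). Among the 6 themselves r ran from 0.327 for Zbtb32 with Nfatc1 to 0.945 for Cd5 with Bhlhe41.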

How the data were processed

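Libraries were made from 100 ng of ribosome-depleted RNA and read in single 50 bp reads, per the labels. The deposited values are TPM by transcript, made by the authors, and each library sums to 1000000. Per the submitters' processing notes, the tools included Salmon, HISAT2, HTSeq, featureCounts and DESeq2 and the build was mm10, and which of these made the table, and whether counting used strand, is not given in the sources used here. Of 13128 transcripts with values, 63 had no symbol and were dropped, and the other 13065 were added up to 6610 gene symbols.

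Group comparisons used limma 3.58.1 (R 4.3.3) on log2(TPM + 1), a scale that understates changes of low genes, with all 10 libraries, group as the only term, a mean-variance trend (5 residual degrees of freedom) and Benjamini-Hochberg adjustment. Testing covered the 4427 genes that reached 1 TPM in 2 or more libraries, all 6 members among them. The fit was tested on simulated data. Coordinates are GRCm38.p6 with GENCODE M21. Promoters of 5 members came from RefSeq, with bases inside annotated exons removed. Tables and figures were made in Python 3.11.15 (pandas 2.3.3 and numpy 2.4.6, with matplotlib 3.10.9).

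The members and gene lists were chosen with earlier results of these data known, so members' Phase II levels against naive and div12 have no test. Genes named from a list are up to 4 called genes with the highest mean TPM in the higher group, the T cell receptor and coreceptor genes, and the 3 genes nearest each member in r among those reaching 10 TPM. Anxa2, Ctla4, Il10, Pdcd1lg2, Ahr, Plac8, Nfatc2, Il7r, C1qa, C1qb, Lyz2, Mpeg1, Adgre1, Cd68, Sdc1, Prdm1 and Irf4 were picked with their values in view. Some genes that fit these rules are not reported here. Alternatives were a pseudocount of 0.1 or 5, no filter or 5 TPM, median-ratio scaling, quantile normalization, the compared groups alone, a replicate block, no trend, the most abundant transcript, no naive group and leaving out each library. With a library left out, its group had 1 library, taken to vary as much as the other groups. List counts under other scalings and without a library, and the T cell sum without Cd2, were added after seeing the data.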

Additional observations from a re-analysis of the deposited data

How the results depend on the processing

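No called change of a member reversed its sign in any alternative run. Members called in div0 against naive were 2, and 1 with no filter, median-ratio scaling or no trend (0 to 2 leaving out a library), and 2 others, Cd5 and Zbtb32, with quantile normalization. Div12 against naive gave 4 (2 to 4 leaving out a library, 5 with quantile normalization, 3 for the compared groups alone, and 4 with 1 gene exchanged for Lck under median-ratio scaling or the most abundant transcript), div12 against div0 1 (2 with a filter at 5 TPM or without the naive group, 0 to 2 leaving out a library) and div12_48_d against div12_48_u 4 in every alternative. The difference gave 0, and 1, Cd9, with quantile normalization, median-ratio scaling, a pseudocount of 5, a filter at 5 TPM, a fit of only the compared groups, the most abundant transcript or no naive group (0 to 1).

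Genes called in div0 against naive were 2431 (1573 to 2382 leaving out a library, lowest without div0 replicate 2). In div12 against div0 they were 388, with 162 without a filter, 236 for the compared groups alone, 183 with no trend, 223 for the most abundant transcript, 601 without the naive group, and 0 to 607 leaving out a library, 0 being without either div0 library. In div12_48_d against div12_48_u they were 1134, with 670 for the compared groups alone and 347 to 1432 leaving out a library, lowest without div12_48_d replicate 1. For the difference they were 0, with 15 at a pseudocount of 5, 7 at a filter of 5 TPM, 23 with median-ratio scaling, 8 with quantile normalization, 11 for the compared groups alone and without the naive group, 2 for the most abundant transcript, and 0 to 11 leaving out a library. Higher and lower calls in div0 against naive were 680 and 1751, 1130 and 1165 with median-ratio scaling and 1272 and 1020 with quantile normalization. In div12 against div0 the split was 163 and 225, or 331 and 188 with median-ratio scaling, and in div12_48_d against div12_48_u 540 and 594, or 669 and 492. In div12 against naive quantile normalization gave 1472 and 1294. The causes were not tested.

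The labels give replicate numbers without saying that they pair samples. Deviations of same-numbered libraries correlated from -0.238 to 0.199 over 10 pairs of groups, above 0.1 in 3, so the numbers were not taken as pairs. With the replicate number as a block, 1 member was called in div0 against naive, where Nfatc1 was lost (adjusted p = 0.0511), and 1, Cd9, for the difference (adjusted p = 0.0370). The block gave 247 genes in div12 against div0 and 3 for the difference. Depth is unknown and each group has 2 libraries, so the precision of every member's level rests on a spread shared across groups.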
